A study of Mus musculus with 6 samples.

Results

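Imprinted genes are expressed from the copy inherited from 1 parent, and 43 of them were followed here in splenic naive B cells of Tet2 knockout (KO) and wild-type (WT) mice. The set is a list of 38 protein-coding genes and 5 long noncoding RNAs in 18 imprinting domains. They were taken by name under a rule that uses no methylation value, but the list was chosen with earlier results of these data known. Each gene was extended by 5 kb at both ends, and its methylation was read in the CpG cytosines that had 10 or more reads in each of the 6 libraries. This gave 3639 of the 1456028 such cytosines on chromosomes 1 to 19 and X, and 226 of 108808 tiles of 1 kb with at least 3 cytosines each. A tile was called half-methylated when the mean of its 6 library levels lay between 35% and 65%, a rule that does not use genotype, and 49 of the 226 tiles met it.

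Enhanced reduced representation bisulfite sequencing (ERRBS) was used, which reads CpG methylation in restriction fragments and so covers CpG-rich DNA best. The 3 KO libraries (genotype TET2 Knock-Out) and the 3 WT libraries were all labelled as naive B cells from the spleen of C57BL/6 mice. The series' design text speaks of germinal centre B cells, but its title and sample labels do not, and the labels were followed. The sources used here do not give how Tet2 was inactivated, in which cells, or the age and sex of the mice, nor do they state that each library came from its own mouse. P-values therefore measure the spread between these libraries, which may be partly technical.

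Imprinted domains carry differentially methylated regions, stretches of CpG-rich DNA that are methylated on the copy from 1 parent and unmethylated on the other. Germline regions acquire the mark in the egg or the sperm and keep it in nearly all tissues, with the help of Dnmt1, Uhrf1 and the zinc-finger protein Zfp57, which binds methylated TGCCGC. Tet2 oxidises 5-methylcytosine, which can lead to its loss. Bisulfite reads 5-methylcytosine and 5-hydroxymethylcytosine alike, and in an inbred strain the parental copies cannot be told apart, so a level is the share of all sequenced molecules that carry the mark.

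Of the 48 promoter entries that RefSeq (GRCm38.p6) holds for 33 of the 43 genes, 23 windows of 250 bases before to 50 after a start had at least 3 measured cytosines. These belonged to 21 genes, and in 4 windows the mean level was half-methylated. The 250 bases before each of these 4 starts are shown because they are the half-methylated promoters themselves. They are printed 5′ to 3′ on the strand of the gene, and capitals mark the CpG sites with a cytosine measured on at least 1 strand. The order is Plagl1 (chr10:13090582-13090831, plus strand), the inner start of Commd1 (chr11:22972867-22973116, minus strand), Zrsr1 (chr11:22971755-22972004, plus strand) and Meg3 (chr12:109540746-109540995, plus strand).
Plagl1: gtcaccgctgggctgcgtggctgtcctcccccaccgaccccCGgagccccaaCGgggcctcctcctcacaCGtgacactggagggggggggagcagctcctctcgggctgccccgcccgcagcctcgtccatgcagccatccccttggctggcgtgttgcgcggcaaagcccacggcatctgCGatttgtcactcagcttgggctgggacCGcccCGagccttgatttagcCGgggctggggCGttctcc
Commd1: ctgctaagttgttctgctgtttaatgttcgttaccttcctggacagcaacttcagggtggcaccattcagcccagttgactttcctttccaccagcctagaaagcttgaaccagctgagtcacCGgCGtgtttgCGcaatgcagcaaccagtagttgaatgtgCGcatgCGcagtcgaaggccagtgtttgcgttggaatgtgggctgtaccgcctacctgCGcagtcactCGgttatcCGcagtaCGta
Zrsr1: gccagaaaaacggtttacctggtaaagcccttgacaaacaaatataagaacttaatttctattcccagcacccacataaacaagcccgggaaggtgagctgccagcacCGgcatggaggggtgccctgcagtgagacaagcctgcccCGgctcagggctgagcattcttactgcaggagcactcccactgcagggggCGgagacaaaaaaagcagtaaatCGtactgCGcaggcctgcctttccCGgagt
Meg3: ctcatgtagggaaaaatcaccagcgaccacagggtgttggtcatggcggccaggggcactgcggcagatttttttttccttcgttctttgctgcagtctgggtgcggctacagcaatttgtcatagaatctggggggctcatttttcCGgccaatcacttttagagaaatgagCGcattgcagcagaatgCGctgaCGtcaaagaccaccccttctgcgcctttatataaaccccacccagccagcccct

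Plagl1 encodes a zinc-finger transcription factor, and its window of 19 measured cytosines was at 27.2%, 44.5% and 41.7% in the KO libraries and at 37.1%, 35.1% and 33.6% in the WT libraries. Zrsr1, a retrotransposed splicing-factor gene, lies inside an intron of Commd1, whose product acts in copper handling and membrane traffic. The Zrsr1 window (11 cytosines) stood at 36.9%, 40.2% and 38.2% in KO and 43.2%, 45.6% and 34.6% in WT. At the inner start of Commd1 (17 cytosines) the levels were 42.5%, 32.2% and 37.9% in KO and 34.7%, 36.9% and 35.1% in WT. Meg3 is a maternally expressed long noncoding RNA, and its 4 cytosines stood at 44.7%, 40.3% and 35.3% in KO and 27.4%, 50.5% and 36.6% in WT. In all 4 windows the KO and WT libraries overlapped, and single cytosines averaged between 29.3% and 45.5%. The letters TGCCGC, searched on both strands, occur once in the Plagl1 bases and once in those of Meg3, and not in the other two. They occur in 8.68% of the 32851 RefSeq promoters taken over the same 250 bases, so a match is a description of the sequence only.

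Commd1 had both a half-methylated and an unmethylated promoter. Its outer start (14 cytosines) averaged 0.073%, against 36.6% at the inner start next to Zrsr1. Other genes of the set had unmethylated promoters: the upstream promoter of Grb10, an adaptor that restrains insulin signalling, averaged 1.53% over 53 cytosines. The promoter of Blcap, which contains Nnat in an intron, averaged 0.278%, and that of the innermost Gnas start, which makes the stimulatory G protein subunit, averaged 0.123% over 40 cytosines. In 12 of the 23 windows the mean was under 10%, and in 0 was it 90% or more. The Igf2r promoter, of the receptor that clears Igf2, lay just under the half-methylated band at 32.4% over 34 cytosines. So did windows of a Gnas start (32.9%, 10 cytosines), a Snrpn start (31.6%, 3 cytosines) and Nnat (31.1%, 4 cytosines).

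Depth was similar in all libraries, with 1551481 to 1626375 cytosines, a median coverage of 92 to 110 reads and 168455105 to 207065050 reads over cytosines. Within the 226 tiles the mean reads per cytosine ranged from 19.4 to 239, with a median of 104. As a check of genotype, 6 cytosines in Tet2 between positions 133486189 and 133486297 of chromosome 3 were present in all 3 WT files, at a mean coverage of 45.2 to 57.2, and in no KO file. Regions of B cell markers (7 of 8 measured) averaged 48.2% to 48.6% in the KO and 46.9% to 47.7% in the WT libraries, and T cell markers (5 of 6) 54.4% to 54.9% and 52.4% to 54.0%. Myeloid markers (4 of 4) averaged 92.7% to 94.7% and 91.7% to 92.9%. The KO libraries were all above the WT libraries for B and T cell markers and overlapped with them for myeloid markers. Methylation near markers does not count cells, and the part of other cells in the results was not tested.

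Half-methylated tiles made up 21.7% of the imprinted-gene tiles (49 of 226) and 6.15% of all tiles (6693 of 108808). Tiles between 10% and 35% were also a larger share of the imprinted set, 10.6% against 4.79%. The other classes were smaller shares: 19.5% against 24.1% under 10%, 8.85% against 16.1% between 65% and 90%, and 39.4% against 48.8% at 90% or more. At the edges of the band, the members just inside were at 35.1% and 63.0% and those just outside at 34.7% and 67.2%.

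**Figure D1:**
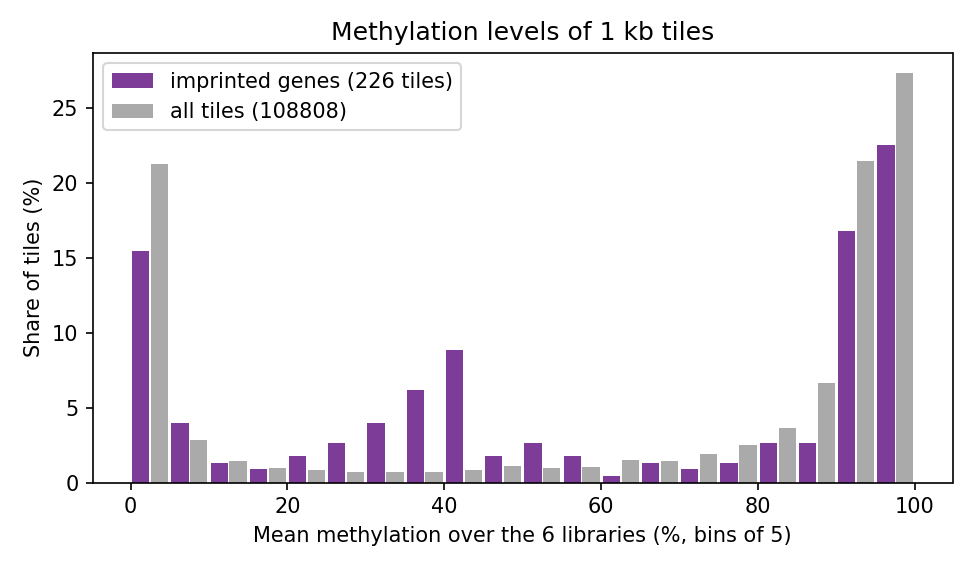
Share of 1 kb tiles (vertical axis, %) by mean methylation level over the 6 libraries (horizontal axis, %), for the 226 imprinted-gene tiles and for all 108808 tiles. The 35% to 65% band holds 21.7% of the imprinted-gene tiles and 6.15% of all tiles.

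The gap between imprinted genes and all tiles was widest in CpG-dense tiles. Among tiles with 30 or more measured cytosines, 30% of those in imprinted genes (9 of 30) were half-methylated, against 0.686% of all 11521 such tiles. These 9 tiles were 11.4% of the 79 half-methylated tiles of that density, although imprinted genes held 0.260% of the tiles. With 3 to 9 cytosines per tile the corresponding shares were 18.5% (27 of 146) and 7.35%. The other 70 of the 79 lay outside the 43 genes.

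Within most half-methylated imprinted tiles the single cytosines had similar levels. Over the 22 such tiles with at least 10 cytosines, the median of the standard deviation between cytosines was 7.14 percentage points, against 22.7 in the other half-methylated tiles of that density. A deviation under 15 points was found in 18 of the 22 tiles (81.8%) and in 148 of the 838 others (17.7%). In the median imprinted tile 90.6% of cytosines were themselves between 30% and 70%, against 50% elsewhere. In all 49 half-methylated tiles, of any density, both strands of a CpG were measured in 174 pairs, and 77.0% of the pairs agreed within 10 points, against 58.4% of 8060 pairs in other half-methylated tiles. The 4 exceptions among the 22 denser tiles were tiles of H13, Gnas, Magel2 and Mkrn3, at 46.3, 16.1, 22.5 and 27.9 points. In the 27 imprinted tiles with 3 to 9 cytosines the median deviation was 10.1 points, against 27.6 in other half-methylated tiles of that density. Some of these 27 also spread widely, such as tiles of Inpp5f (55.5 points), Ddc (53.7), Igf2r (38.6) and H19 (21.1).

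**Figure D2:**
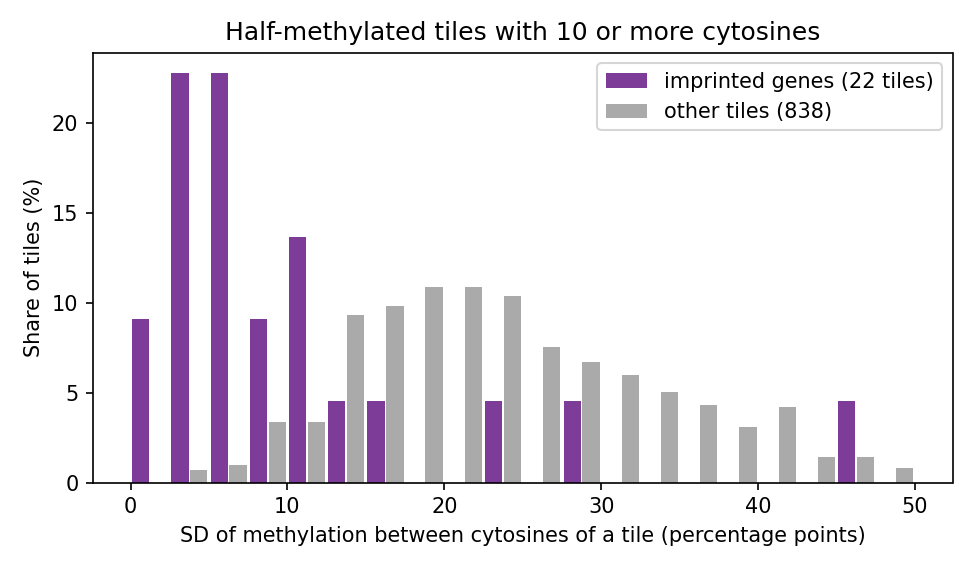
Share of half-methylated tiles with at least 10 cytosines (vertical axis, %) by standard deviation between the cytosines of a tile (horizontal axis, percentage points), for imprinted-gene tiles and other tiles. Of the 22 imprinted-gene tiles, 18 lie under 15 points, against 148 of 838 others.

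The levels sat below 50%. Of the 22 dense imprinted tiles 19 averaged under 50%, with a range of 35.1% to 56.99%, and their mean was 42.1% against 49.8% in other dense half-methylated tiles. Elsewhere 50.4% of such tiles averaged under 50%. 
For each imprinting domain the half-methylated tile with most cytosines was examined in every library. Rasgrf1, a guanine nucleotide exchange factor of a paternally marked domain, had no half-methylated tile among its 5, so 17 tiles remained. Only the gene and 5 kb on each side were read, so a marked region farther away was not measured. In the Igf2-H19 domain tiles of H19 and Igf2 tied at 8 cytosines, and the H19 tile was taken as the first by position. Levels of the 17 tiles ran from 31.1% to 60.8% over the libraries, and the means from 35.1% to 56.99% with a median of 41.8%.

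Most of these genes lie in domains whose germline mark comes from the egg. In Gnas, the tile chr2:174299001-174300000 (74 cytosines) was at 42.1%, 42.5% and 39.3% in KO and 42.7%, 38.7% and 39.98% in WT. The Grb10 tile chr11:12026001-12027000 (76 cytosines) was at 46.0%, 48.1% and 37.9% in KO and 41.7%, 41.2% and 40.4% in WT. The Zrsr1 and Commd1 tile chr11:22972001-22973000 (67 cytosines) was at 39.7%, 35.3% and 35.3% in KO and 37.0%, 37.2% and 36.1% in WT. These 3 tiles hold the most cytosines of the 17, and in each the KO and WT libraries overlapped. The pooled differences, KO minus WT, were 0.636, 2.74 and -0.0375 points.

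The next group joins genes of growth control and a noncoding RNA. Plagl1 (chr10:13090001-13091000, 36 cytosines) was at 31.2%, 41.9% and 43.3% in KO and 39.2%, 38.0% and 37.3% in WT. Airn, the noncoding RNA that silences paternal Igf2r, was read inside Igf2r at chr17:12742001-12743000 (18 cytosines), at 38.8%, 32.2% and 35.6% in KO and 42.5%, 36.8% and 35.3% in WT. Impact, a regulator of translation under amino-acid shortage, was read on chromosome 18 in 24 cytosines, at 32.2%, 37.9% and 38.7% in KO and 43.1%, 32.9% and 34.1% in WT. Genotypes overlapped in all 3, and the WT libraries of Impact spanned a wider range than its KO libraries.

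Retroelement-derived Peg10 shares a promoter region with Sgce, a sarcoglycan gene, at chr6:4747001-4748000 (12 cytosines), which was at 32.1%, 37.3% and 42.0% in KO and 31.6%, 31.1% and 42.4% in WT. Peg3, a zinc-finger gene, shares one with Usp29 at chr7:6730001-6731000 (8 cytosines), which was at 43.7%, 37.3% and 49.1% in KO and 36.1%, 42.5% and 42.0% in WT. Mest, a hydrolase gene, was read at chr6:30739001-30740000 (6 cytosines), at 43.5%, 42.8% and 42.4% in KO and 35.6%, 42.1% and 41.2% in WT. Only Mest had all 3 KO libraries above all 3 WT libraries here, and its difference of 2.78 points had an adjusted p of 0.873 in the quasi-binomial test.

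In the noncoding RNA Peg13, inside Trappc9, the tile chr15:72809001-72810000 (18 cytosines) was at 35.2%, 40.8% and 44.8% in KO and 45.7%, 43.4% and 45.1% in WT. The Nnat tile chr2:157561001-157562000 (15 cytosines), in the gene of a brain proteolipid, was at 59.6%, 60.8% and 49.9% in KO and 58.3%, 55.1% and 58.2% in WT. Magel2, an intronless gene of the Prader-Willi region, was at 46.7%, 41.6% and 45.3% in KO and 43.6%, 40.8% and 41.3% in WT over 39 cytosines (chr7:62377001-62378000). Nnat was the highest of the 17 tiles, at a mean of 56.99%, and Magel2 had the smallest unadjusted p, 0.0363, with an adjusted p of 0.665 in the quasi-binomial test.

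Cdkn1c, an inhibitor of the cell cycle, and Kcnq1ot1, both of the Kcnq1 domain, came next, followed by genes of the paternally marked domains. As in the other domains, tiles were picked by number of cytosines and not by the place of a germline mark. The Cdkn1c tile chr7:143460001-143461000 (47 cytosines), the lowest of the 17, was at 32.3%, 38.3% and 32.2% in KO and 35.8%, 36.0% and 35.9% in WT. In the Kcnq1 domain the Kcnq1ot1 tile chr7:143295001-143296000 (19 cytosines) was at 31.5%, 32.3% and 44.0% in KO and 39.8%, 38.7% and 34.3% in WT. The growth-restraining noncoding RNA H19 (chr7:142578001-142579000, 8 cytosines) was at 46.8%, 42.6% and 47.4% in KO and 52.8%, 40.9% and 39.7% in WT. Meg3 (chr12:109540001-109541000, 8 cytosines) was at 51.1%, 53.8% and 54.8% in KO and 35.8%, 54.3% and 49.5% in WT. The Igf2 tile tied with that of H19 (chr7:142665001-142666000) was at 53.6%, 57.2% and 57.6% in KO and 54.3%, 52.5% and 50.1% in WT, and the genotypes overlapped. In Meg3 1 WT library lay low, at 35.8%, and the other two lay near the KO libraries.

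H13 and Inpp5f, which encode a signal peptide peptidase and an inositol phosphatase, reached the band by another route. The H13 tile chr2:152696001-152697000 (12 cytosines) was at 45.6%, 48.3% and 60.1% in KO and 56.8%, 49.3% and 54.9% in WT, yet 0 of its cytosines averaged between 30% and 70%. Likewise the Inpp5f tile chr7:128610001-128611000 (4 cytosines) was at 50.2%, 53.3% and 50.6% in KO and 48.9%, 47.1% and 46.5% in WT, with 0 cytosines in that range. These tiles join methylated and unmethylated cytosines, and the genotypes overlapped in H13 and were apart in Inpp5f (3.52 points, adjusted p = 0.921 in the quasi-binomial test). A second Inpp5f tile, chr7:128688001-128689000, lay just under the band at 32.9%, with all 13 of its cytosines between 30% and 70%.

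**Figure D3:**
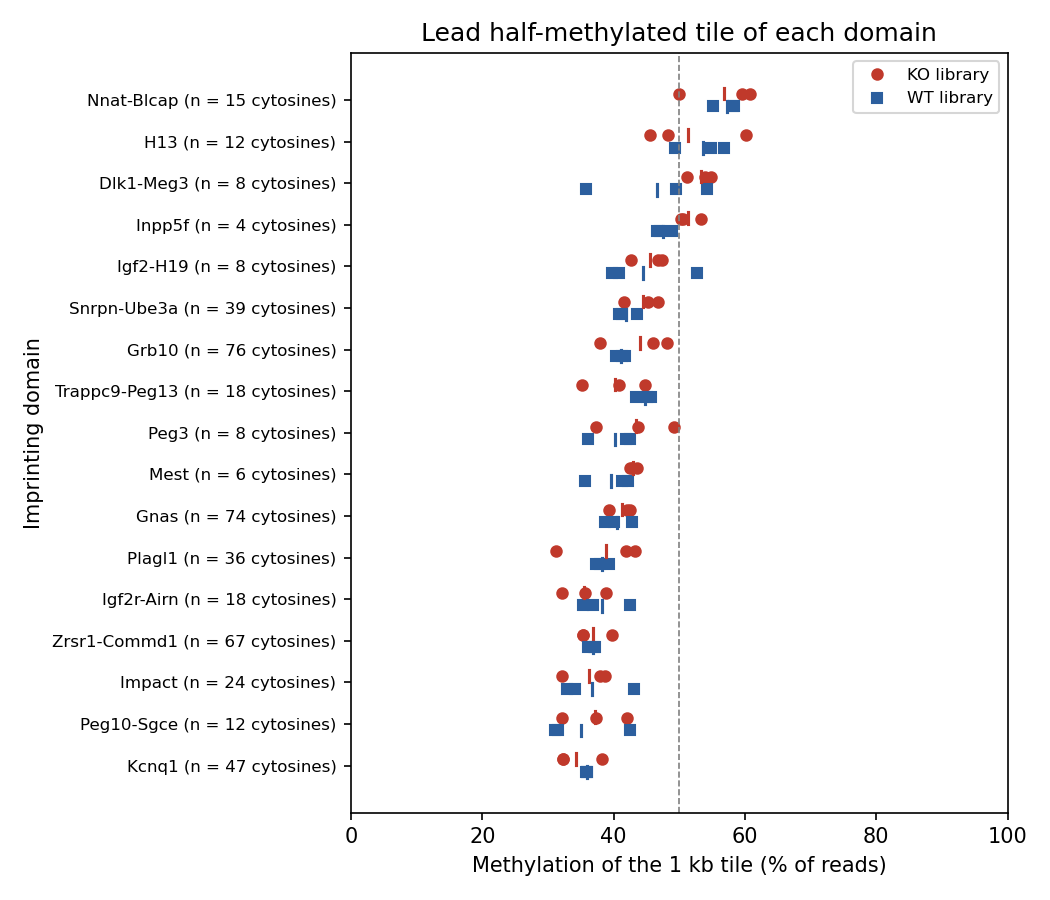
Methylation level (horizontal axis, %) of the half-methylated tile with most cytosines in each of 17 imprinting domains (rows), with 1 point per library, colours for KO and WT, and short lines at the means. All points lie between 31.1% and 60.8%, and the genotypes overlap in 15 of the 17 rows.

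Several loci held runs of half-methylated tiles. Gnas had 9 among its 17 tiles, in the stretches that begin at 174284001 and at 174295001 and in 1 tile at 174326001 of chromosome 2. The next 2 tiles of that last stretch, at 174327001 and 174328001, averaged 34.7% and 34.5%, just under the band. All 4 Zrsr1 tiles were half-methylated, from 36.8% to 42.3%, as were all 4 Peg13 tiles, from 36.8% to 55.4%. The Peg13 tile at 72802001 lies in the 5 kb beside the gene, and 2 of its 6 cytosines were between 30% and 70%. In the Peg13 tile at 72810001, 3 of 8 cytosines were in that range. In Grb10 the 2 tiles at 12025001 and 12026001 averaged 44.8% and 42.5%, and the tile of the upstream promoter averaged 3.10%.

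Genes of the Snrpn to Ube3a cluster differed in level. The Snrpn tiles, at the promoter of a small ribonucleoprotein gene, averaged 42.9% and 37.5%. The Ndn promoter tile, of a neuronal growth suppressor, averaged 34.6%, those of Mkrn3, a zinc-finger ubiquitin ligase, 48.0% and 25.5%, and the 3 tiles of Peg12 between 23.6% and 29.9%. Ube3a, a ubiquitin ligase imprinted in neurons, had 2 tiles, the higher at 0.273%. Igf2r and Airn gave 39.2% and 36.9% in the Airn tiles and 31.8% in the Igf2r promoter tile of 69 cytosines.

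**Figure D4:**
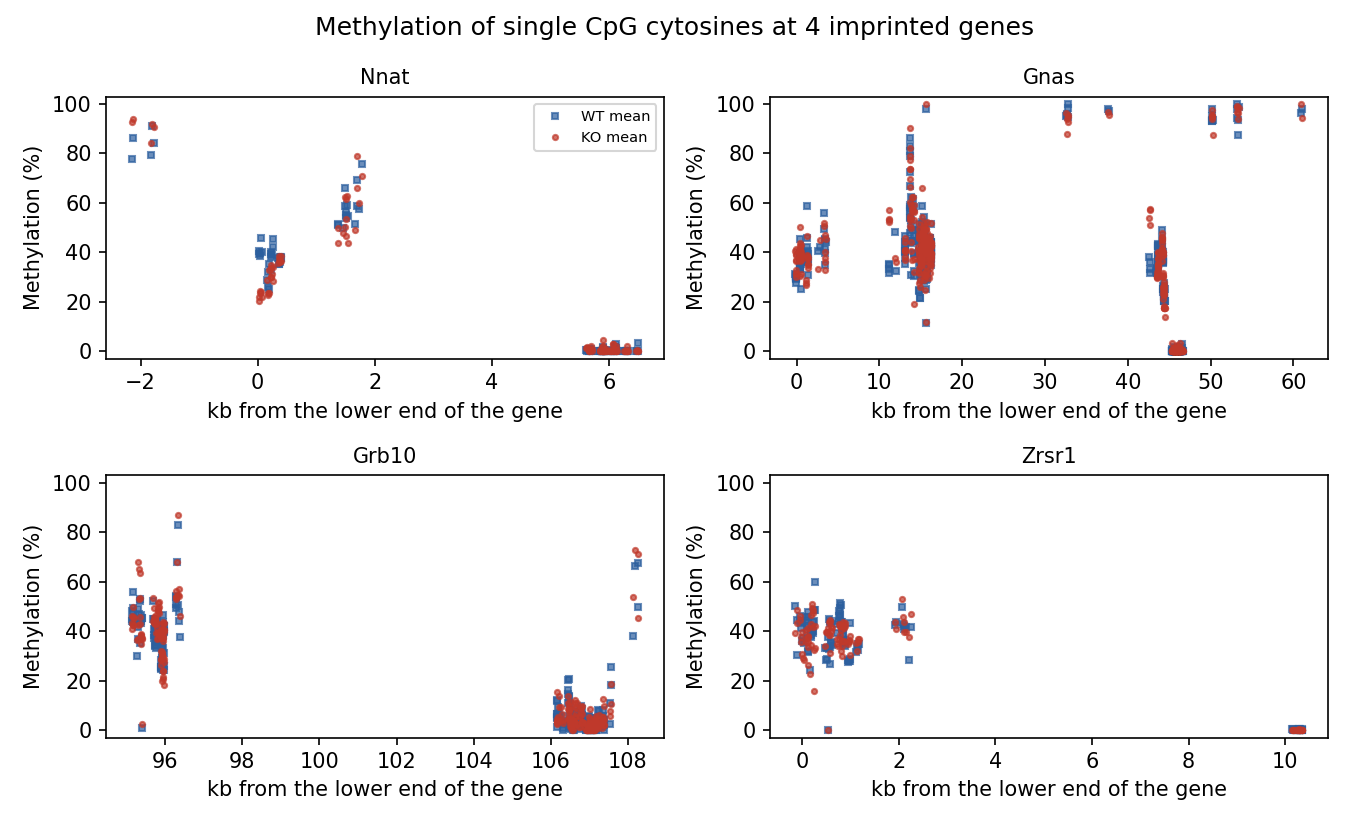
Methylation level (vertical axis, %) of single CpG cytosines against their distance from the lower end of the gene (horizontal axis, kb), for Nnat, Gnas, Grb10 and Zrsr1, with 1 point for the mean of the 3 KO libraries and 1 for that of the 3 WT libraries. Grb10, for example, has a stretch in tiles that average 44.8% and 42.5% and a promoter stretch in a tile that averages 3.10%.

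Half-methylated tiles occurred in 30 of the 43 genes, some of which share a tile. In Ddc, as in H13 and Inpp5f, the only such tile held 0 cytosines between 30% and 70%. The 13 genes without a half-methylated tile were Ascl2, Phlda2, Slc22a2, Slc22a3, Zim1, Copg2, Ndn, Peg12, Ube3a, Rtl1, Dio3, Rasgrf1 and Kcnk9. In part these hold unmethylated promoters, such as Phlda2, a placental growth regulator, at 1.23% over 10 cytosines, or Dio3, a deiodinase, at 4.42% over 23. Rtl1, a retrotransposon-derived gene, was methylated throughout, with its 7 tiles between 79.0% and 96.7%.

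Whether loss of Tet2 went with another level in these regions was asked first over the half-methylated tiles as a group. The mean level of the 49 tiles was 45.7%, 45.3% and 45.5% in the KO libraries and 43.6%, 43.8% and 42.4% in the WT libraries. All 3 KO libraries were above all 3 WT libraries. The means were 45.5% ± 0.208 (SD, n = 3) and 43.3% ± 0.757 (SD, n = 3), a difference of 2.23 points (two-sided exact permutation p = 0.1, the smallest that 3 against 3 libraries allow).

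The rest of the genome was taken as the comparison. In the 6644 other half-methylated tiles the means were 53.1% ± 0.481 and 50.8% ± 1.06 (SD, n = 3 each), a difference of 2.31 points (exact permutation p = 0.1). The difference between the imprinted and the other tiles, taken within each library, was -0.0802 points KO minus WT (exact permutation p = 1). Its sign was positive without KO library 1, KO library 2 or WT library 1, at 0.0682, 0.405 and 0.880. By tile, 33 of 49 (67.3%) were higher in KO, against 63.9 percent of all half-methylated tiles.

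In 6 of the 49 tiles (12.2%) every KO library was above every WT library, against 13.2 percent of all half-methylated tiles. These were 2 tiles of Gnas and 1 each of Mest, Mkrn3, Inpp5f and Trappc9 with Peg13. In 1 tile (2.04%), of Igf2, the KO libraries were all lower, against 2.81 percent. Both shares were near those of the background.

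Tiles with many cytosines and tiles with few were then taken apart, a split chosen after the data were seen and left untested. The 22 tiles with at least 10 cytosines averaged 42.1% ± 1.40 in KO and 42.1% ± 1.88 in WT (SD, n = 3), a difference of 0.0721 points, with 12 higher and 10 lower in KO. The 27 tiles with 3 to 9 cytosines averaged 48.2% ± 1.51 and 44.3% ± 1.81, a difference of 3.98 points, with 21 higher in KO. In other half-methylated tiles the same differences were 1.50 and 2.42 points. Leaving out 1 library at a time moved the dense difference between -0.595 and 1.27 points, with values below 0 without KO library 2, WT library 2 or WT library 3 and the highest without WT library 1. Leaving out 1 library kept the sparse difference between 3.36 and 4.93 points.

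**Figure D5:**
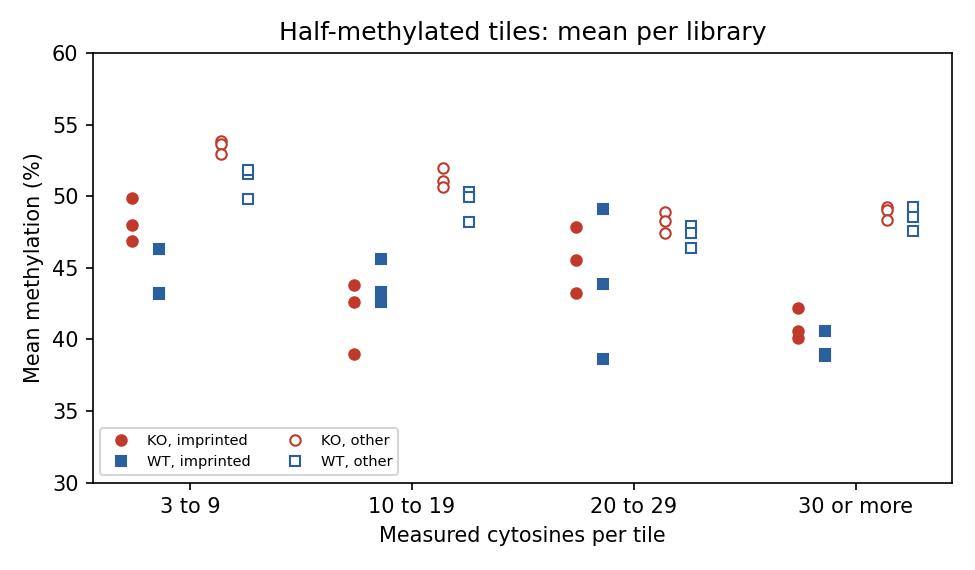
Mean methylation of half-methylated tiles (vertical axis, %, from 30 to 60) by number of measured cytosines per tile (horizontal axis), with 1 point per library, filled for imprinted genes and open for all other tiles. In the class of 3 to 9 cytosines all 3 filled KO points lie above the WT points; in the other 3 classes the filled points overlap, and the filled points of 30 or more cytosines lie below the open ones.

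Tile by tile, 0 of the 226 imprinted-gene tiles were called at an adjusted p under 0.05 with a difference of at least 10 points in the quasi-binomial test. Over all 108808 tiles 0.112 percent were called, 122 tiles, all higher in KO. With no adjustment, p was under 0.05 in 21 imprinted-gene tiles with the higher level in KO (9.29%) and in 4 with the lower (1.77%), against 5.73 and 1.46 percent of all tiles. By limma on log ratios 0 were called, and the counts at that unadjusted p were 10 higher (4.42%) and 1 lower, against 5.06 and 1.51 percent of all tiles. By edgeR 0 were called, with 11 higher (4.87%) and 1 lower, against 4.16 and 1.42 percent. The larger share than over all tiles, as in the quasi-binomial test, was not found with limma and was less marked with edgeR. KO and WT libraries did not overlap in 24 tiles higher in KO (10.6%) and 6 lower (2.65%), against 8.34 and 3.36 percent of all tiles. A difference was above 0 in 136 of the 226 tiles (60.2%), against 59.7 percent of all tiles.

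The tile with the smallest p covers the start of Nnat (chr2:157560001-157561000, 25 cytosines), inside Blcap. It was at 29.6%, 29.4% and 29.1% in KO and 37.9%, 34.8% and 36.1% in WT. Each KO library lay below each WT library, and 21 of the 25 cytosines were lower in KO. Neighbouring cytosines can share reads, so such counts, here and below, are not counts of separate measurements. The pooled difference was -7.00 points (adjusted p = 0.0808 in the quasi-binomial test), which missed the threshold, and over the alternatives the adjusted p ran from 0.0729 to 0.904. The 4 cytosines in the first bases after the Nnat start were at 24.6%, 25.1% and 18.4% in KO and 39.0%, 37.3% and 42.5% in WT, values singled out after they were seen and left untested. Along the tile the difference was uneven, which was not tested. The first cytosine of the tile, 0.02 kb past the start, averaged 20.4% in KO and 39.4% in WT. The last, at 0.4 kb, averaged 38.4% in KO and 38.2% in WT. The neighbouring tile, 923 bases past the start, differed by -0.744 points.

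Next among the lower tiles was Cdkn1c at chr7:143459001-143460000 (72 cytosines), beside the lead tile of that gene. It was at 22.3%, 29.3% and 28.8% in KO and 32.9%, 33.0% and 33.9% in WT. The WT libraries lay close together, all KO libraries lay below them, and KO library 1 lay lowest. The difference was -5.85 points, with 56 of 72 cytosines lower in KO (adjusted p = 0.133 in the quasi-binomial test). With every cytosine weighted equally the adjusted p was 0.0266, but the difference stayed short of the 10 points asked for a call, and over all alternatives it ran from 0.0266 to 0.907.

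The 3 other lower tiles were smaller or more methylated. Slc22a3, an organic cation transporter, had a tile just before its start (chr17:12508001-12509000, 10 cytosines) at 86.0%, 81.7% and 80.3% in KO and 87.7%, 89.9% and 85.1% in WT. Usp29 (chr7:6948001-6949000, 5 cytosines) was at 89.9%, 86.7% and 91.5% in KO and 95.0%, 93.8% and 94.2% in WT. Igf2, a fetal growth factor, had a tile of 3 cytosines (chr7:142657001-142658000) at 55.4%, 47.9% and 41.1% in KO and 58.1%, 55.9% and 59.8% in WT. The libraries overlapped in Slc22a3 and were apart in the other two, with adjusted p of 0.325, 0.577 and 0.717 in the quasi-binomial test.

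Among tiles higher in KO the smallest p was inside Kcnq1, a potassium channel gene (chr7:143159001-143160000, 6 cytosines). It was at 92.8%, 91.4% and 94.4% in KO and 82.1%, 85.5% and 80.4% in WT, and all 6 cytosines were higher in KO. The difference was 10.2 points (adjusted p = 0.178 in the quasi-binomial test). This tile was not half-methylated.

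Gnas gave 2 of the 5 tiles, each of 4 cytosines and each half-methylated. The first, just before a Gnas start (chr2:174326001-174327000), was at 54.0%, 62.3% and 48.3% in KO and 34.7%, 41.4% and 27.5% in WT. The second (chr2:174295001-174296000) was at 68.8%, 40.7% and 52.8% in KO and 37.9%, 37.8% and 25.9% in WT. All KO libraries were above all WT libraries in both, by 19.4 and 17.6 points pooled, with adjusted p of 0.288 and 0.526 in the quasi-binomial test. The next Gnas tile after the first, at 174327001 (19 cytosines), was at 33.4% ± 6.40 in KO and 36.0% ± 2.40 in WT (SD, n = 3). After the second, the next tile, at 174297001 (11 cytosines) differed by 1.11 points.

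The last pair lay at either end of the scale. Rasgrf1 had an unmethylated tile (chr9:89910001-89911000, 22 cytosines) at 3.65%, 4.14% and 4.83% in KO and 1.17%, 3.29% and 2.49% in WT. Trappc9 had a tile of 3 cytosines (chr15:72972001-72973000) at 98.6%, 94.7% and 93.7% in KO and 61.1%, 70.5% and 85.8% in WT. The Trappc9 tile averaged 28.4 reads per cytosine, against a median of 104 over the 226 tiles. The genotypes were apart in both the Rasgrf1 and the Trappc9 tile, and the WT libraries of Trappc9 were spread more widely than the KO libraries. The differences were 1.91 and 16.5 points, with adjusted p of 0.526 and 0.529 in the quasi-binomial test.

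In the 17 lead tiles the mean of the KO libraries was above that of the WT libraries in 11 and below it in 6. The Zrsr1 and Commd1 tile was higher in KO by library means but lower, at -0.0375 points, by pooled reads. No pooled difference was beyond 6.84 points in size, and the smallest adjusted p was 0.665 in the quasi-binomial test. Only the Grb10 tile passed an adjusted p of 0.05 in any alternative, without KO library 3, at 0.0194 and 6.02 points, under the 10 points of a call. With all libraries its difference was 2.74 points (adjusted p = 0.798 in the quasi-binomial test), and KO library 3, at 37.9%, was the lowest of the 6. A p that misses the threshold does not show that the genotypes had equal levels. On simulated data for all 108808 tiles the test recovered 44 of 100 differences of 15 points and 98 of 100 of 30 points. It also made 7 false calls. The simulated tiles were all given the same spread beyond counting error, so recovery in the real tiles may differ.

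Over whole genes extended by 5 kb, 0 of the 43 regions were called in the quasi-binomial test, and 0 percent of all 28581 gene regions were. At an unadjusted p under 0.05, 6 were higher in KO (14.0%) and 1 lower (2.33%), against 17.1 and 0.364 percent of all regions. By limma and by edgeR alike 0 were called, with 4 higher (9.30%) and 0 lower at that p, against 12.6 and 0.864 percent of all regions by limma and 14.7 and 0.623 percent by edgeR. A difference above 0 was found in 33 of the 43 (76.7%), against 76.6 percent of all regions. The median difference was 1.34 points, against 0.817 over all regions. With every cytosine weighted equally the medians were 0.602 and 0.186 points, and 30 of the 43 (69.8%) were higher, against 69.1 percent. Overlapping genes such as Nnat and Blcap share cytosines and are not separate measurements.

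The 6 regions higher in KO at that p were Ddc, Slc22a3, Rasgrf1, Inpp5f, Trappc9 and Kcnk9. Ddc, the dopa decarboxylase gene next to Grb10, averaged 59.3% ± 4.64 in KO and 48.3% ± 6.63 in WT (SD, n = 3), 11.1 points apart (adjusted p = 0.210 in the quasi-binomial test). Trappc9 averaged 56.2% ± 2.70 and 48.1% ± 4.30, 7.78 points apart (adjusted p = 0.165 in the same test). Rasgrf1 averaged 16.5% ± 0.329 and 13.2% ± 1.21, 3.24 points apart, with the smallest adjusted p of the 43, 0.158. With every cytosine weighted equally these differences were smaller: 0.657 points in Ddc, 1.34 in Trappc9, 1.88 in Rasgrf1, 1.63 in Inpp5f and 0.492 in Kcnk9, and Slc22a3 was lower in KO, at -0.796 points against 7.28 by pooled reads. The region lower in KO at an unadjusted p under 0.05 was Cdkn1c, at 30.8% ± 1.78 and 33.7% ± 0.405, a difference of -2.68 points (adjusted p = 0.220 in the quasi-binomial test) and of -3.83 points with equal weights.

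The genes that set and keep imprints, together with those of the Tet enzymes, were looked at by the same tests. Of 16 listed genes, among them Dnmt1, Uhrf1, Zfp57, Zfp445, Trim28, Dppa3, Tet1, Tet2 and Tet3, 0 regions and 0 of 102 tiles were called. In 14 of 16 regions the level was higher in KO, against 76.6 percent of all regions. Tet2, the gene knocked out, is among the 16. The tile with the smallest p was in Dnmt3a, the de novo methyltransferase (chr12:3871001-3872000, 9 cytosines), at 84.7%, 88.2% and 88.9% in KO and 77.5%, 76.3% and 80.4% in WT. The KO libraries were all higher, by 9.16 points pooled (adjusted p = 0.0712 in the quasi-binomial test). The region with the smallest p was Ctcf, the insulator protein that binds unmethylated H19 control DNA, at 4.42% ± 0.0843 and 3.56% ± 0.0623 (adjusted p = 0.148 in the same test), a difference of 0.860 points that was 0.0646 with every cytosine weighted equally. Half-methylated tiles were 3 of the 102, or 2.94%.

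A further 31 imprinted genes outside the 43 were listed, of which 30 matched the annotation. They held 119 tiles, 5 of them shared with the 43 genes, and 14 (11.8%) were half-methylated. In the quasi-binomial test 0 tiles and 0 of 25 regions were called. Herc3, a ubiquitin ligase gene that contains imprinted Nap1l5, had the region with the smallest p, with means of 27.2% ± 2.04 for KO and 19.9% ± 0.625 for WT (SD, n = 3 each, adjusted p = 0.148 in the quasi-binomial test). Its difference of 7.34 points was 0.808 with every cytosine weighted equally. The tile chr6:58906001-58907000 of Herc3 and Nap1l5 (17 cytosines) was half-methylated at 48.1%, 51.2% and 52.2% in KO and 55.0%, 47.4% and 40.4% in WT, with a standard deviation of 7.85 points between cytosines. The other 2 half-methylated tiles of these genes with at least 10 cytosines lay in Th, the tyrosine hydroxylase gene (13 cytosines), and Cdh15, a cadherin gene (11 cytosines), with deviations of 21.1 and 10.2 points. Th averaged 60.7% ± 4.61 in KO and 51.6% ± 11.3 in WT, and Cdh15 55.6% ± 18.8 and 52.8% ± 5.47 (SD, n = 3 each). The tile with the smallest p was in Osbpl5, a lipid transport gene, where KO averaged 98.9% ± 0.738 and WT averaged 91.9% ± 2.04 (SD, n = 3 each, adjusted p = 0.455 in the quasi-binomial test).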

How the data were processed

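ERRBS reads were processed with Bismark on GRCm38, per the submitters' processing notes; the version of Bismark is not given in the sources used here. For each CpG cytosine and strand the authors deposited a coverage, which is an unnormalized count of reads and never below 10. Beside it stand the percent of those reads with C and with T, per the file headers. C and T counts were recovered as percent times coverage, and 100% were whole to within the last printed decimal of the percent. Other bases made 0.0178% to 0.0190% of reads and were dropped. No molecular identifiers are stated, so reads may not be independent molecules and depth limits counting error only. Chromosomes 1 to 19 and X were used.

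A level is the percent of all C and T reads of a tile or gene region that are C; promoter and marker values are means over cytosines. Differences of single tiles and regions are KO minus WT of pooled reads, and those over groups of half-methylated tiles are of library means. Counts of half-methylated tiles higher or lower in KO compare library means. Each tile (1 kb, at least 3 cytosines) and each RefSeq gene region (at least 5 cytosines) was fitted with a quasi-binomial model, 1 level per genotype. Overdispersion was moderated with limma 3.58.1 in R 4.3.3 and held at 1 or above; p-values were adjusted by Benjamini-Hochberg over all tiles or all regions. A call needed an adjusted p under 0.05 and 10 points. Library means were compared by two-sided exact permutation tests. limma on log ratios and edgeR 4.0.16 served as alternatives. Python 3.11.15, numpy 2.4.6 and pandas 2.3.3 were also used, and the fits were tested on simulated data.

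The genes and lists were chosen with earlier results of these data known. Named were Tet2, the half-methylated tile with most cytosines per domain, called tiles, the 5 tiles of smallest p in each direction, the smallest p of each further list, and half-methylated promoters. Region differences and other values named in groups were picked after they were seen. Exon, intron and untranslated context was not analysed here.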

Additional observations from a re-analysis of the deposited data

How the results depend on the processing

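No tile or region of the 43 genes, of the imprint maintenance genes or of the other imprinted genes was called in any alternative (coverage minimum of 20, coverage maximum, equal weights, autosomes, tiles shifted by 500 bp, 5 cytosines per tile, 1 kb flanks, no moderation, limma, edgeR, the replicate block or leaving out a library). The difference between imprinted and other half-methylated tiles, -0.0802 points, turned to 0.0579 with shifted tiles and 0.627 with a band of 40% to 60%, and ran from -0.916 to 0.880 when 1 library was left out; the cause was not tested. The mean difference of half-methylated imprinted tiles ran from 1.71 to 2.64 points, their number from 47 to 51, when 1 library was left out. Same-numbered KO and WT libraries did not deviate together (r = 0.0478, -0.0294 and -0.00739 over 29470 tiles), so the numbers were taken as names only. With the replicate block the mean difference of 2.23 points had an exact sign-flip p of 0.25, the smallest 3 pairs allow, and 0 tiles were called over all the genome, against 122 without it; no moderation, limma and edgeR also gave 0. These counts of 0 carry little weight. On simulated tiles with differences of 15 and 30 points the quasi-binomial test recovered 44 and 98 of 100, the replicate block 1 and 12. Recovered by limma were 0 and 4, by edgeR 0 and 5, and by the fit with no moderation 0 and 0. The quasi-binomial test also made 7 false calls there, and each of the others made 0. All simulated tiles shared the same overdispersion and changes were placed at intermediate levels, so recovery in the real tiles was not measured. Of 70 tiles and regions named, 27 took the other sign in at least 1 alternative and 0 crossed the call threshold.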
